A study of Mus musculus with 6 samples.

Results

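The genes described here are 10 that read or end the acetylcholine signal in the hippocampus: the muscarinic receptor genes Chrm1 to Chrm5, the nicotinic receptor subunit genes Chrna4, Chrna7 and Chrnb2, the acetylcholinesterase gene Ache, and Lynx1, which encodes a brake on nicotinic receptors. They were taken by gene symbol from a deposited table of 31838 genes, in which each of the 10 had 1 row, and all 10 passed the filter on low counts that left 20428 genes for testing. Poly(A) RNA was sequenced from the hippocampus of wild-type C57BL/6 mice aged 4 months. One group of 3 libraries came from mice given the plasticiser butyl benzyl phthalate (BBP) at a dose of 50 mg/kg/day, and the control group of 3 libraries came from mice given corn oil. The study's title links BBP with cognitive impairment, so the comparison asks whether cholinergic transcripts of treated mice differed from those of corn oil mice. Whether libraries stand for separate animals or for pooled tissue is not stated in the labels, nor how BBP was given or for how long. The p-values therefore measure only the spread between these libraries.

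Acetylcholine reaches the hippocampus mainly along axons from the medial septum and diagonal band, where the cell bodies of the cholinergic neurons lie. Muscarinic receptors are G protein-coupled: the products of Chrm1, Chrm3 and Chrm5 act through Gq and phospholipase C, and those of Chrm2 and Chrm4 through Gi/o, which lowers cyclic AMP and opens GIRK potassium channels. Nicotinic receptors are ligand-gated cation channels of 5 subunits, and acetylcholinesterase in the synaptic cleft ends the signal by hydrolysing acetylcholine. This system is known for its part in attention and memory and as the target of the cholinesterase inhibitors used in dementia.

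The total of deposited counts was 62477604 to 67270275 in the BBP libraries and 62747522 to 68422361 in the corn oil libraries. Markers of all hippocampal fields were present in every library: the summed level of 10 dentate granule neuron markers was 31.0 to 64.3 FPKM (fragments per kilobase of gene, scaled to library depth) in BBP and 42.8 to 62.6 FPKM in corn oil, and that of 12 CA2 and CA3 markers was 85.7 to 141 FPKM in BBP and 133 to 153 FPKM in corn oil. The sum of the 7 CA1 markers in the table was 108 to 136 FPKM in BBP and 120 to 134 FPKM in corn oil. BBP library 1 stood apart. It had the lowest dentate and CA2 and CA3 sums, together with the highest sum of 17 striatum markers, at 292 FPKM against 119 to 163 FPKM in the other 5 libraries, and of 12 isocortex markers, at 155 FPKM against 68.0 to 90.1 FPKM. None of these striatum and isocortex markers was at 0 in all libraries. For the genes whose fold change moved most with this library, values are given below with and without it. Corn oil library 3 had the highest sum of 9 choroid plexus markers, at 374 FPKM against 50.7 to 122 FPKM elsewhere. Almost all of it came from Ttr, the transthyretin gene, at 366 FPKM, while Kl, the klotho gene, stood at 1.85 FPKM. Clic6, Sostdc1, Folr1, Aqp1 and Prlr were also highest in that library, at 0.308 to 1.79 FPKM. Kl was highest in BBP library 2, and Calml4 and Otx2 were highest in corn oil library 2.

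Levels per length spanned a wide range and kept much the same order in all libraries. Averaged over the 6 libraries, Lynx1 was highest at 65.8 FPKM and lay at the 98.3 percentile of all genes in the table. Chrm1 followed at 28.6 FPKM and Ache at 11.8 FPKM, and the ranges of these 3 genes over libraries did not overlap with each other or with that of the next gene. Chrnb2 (7.97 FPKM), Chrm3 (7.40 FPKM) and Chrm4 (6.32 FPKM) formed a middle band with overlapping ranges, and Chrnb2 was above Chrm3 in 4 of 6 libraries only. Chrna4 at 4.38 FPKM was below Chrm4 in all 6 libraries. Chrna7 (1.47 FPKM) and Chrm2 (1.23 FPKM) were not told apart, with Chrna7 higher in 4 of 6 libraries, and Chrm5 was lowest at 0.296 FPKM. The ratio of count to FPKM corresponded to a fixed length for each gene in all libraries (within 1.73% at most, for Chrm5), from 1440 bases for Chrm4 to 8380 bases for Chrnb2, so the values carry no information on isoforms. For Chrm4 and Chrm5, each with 1 listed transcript, the lengths were 1440 to 1441 and 1613 to 1641 bases, within 5% of the 1440 and 1599 bases listed. For every other gene the length was above that of its longest listed transcript. It was 6253 to 6255 against 4336 bases for Chrm3, and 4508 to 4516 against 2814 bases for Chrna7. FPKM divides by this length, so the order of levels depends on it.

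**Figure D1:**
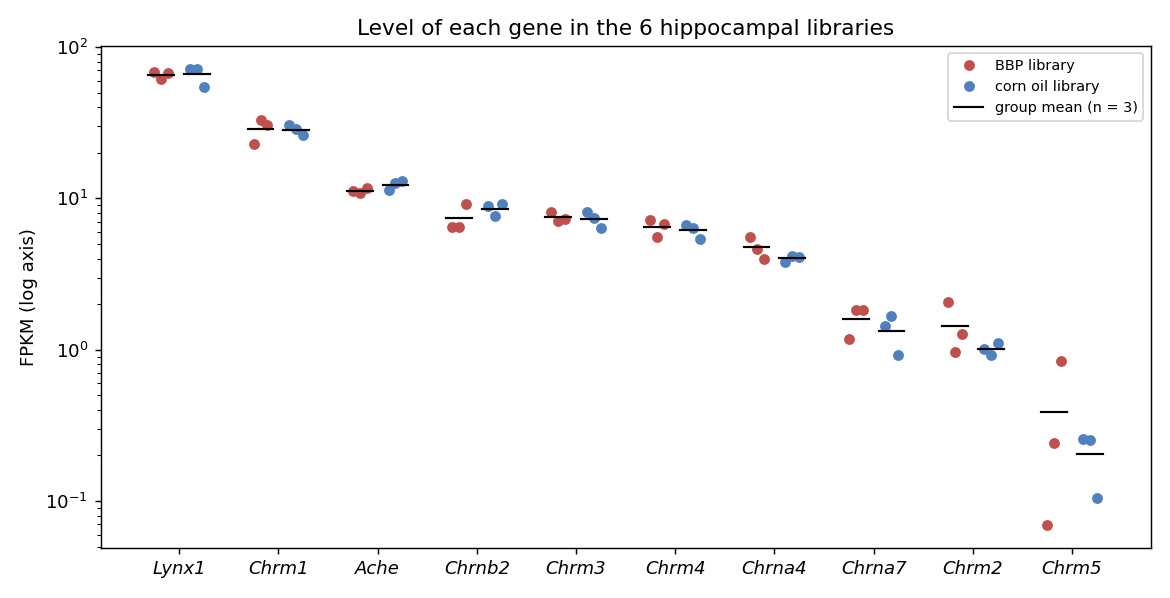
Level of each of the 10 genes in FPKM (log axis), in order of mean level, with BBP libraries in red left of corn oil libraries in blue and bars for group means (n = 3 each). The groups overlap for every gene, and Chrm5 spreads from 0.0696 to 0.848 FPKM.

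No difference between BBP and corn oil passed the test for any of the 10 genes. At a Benjamini-Hochberg adjusted p of 0.05, edgeR's quasi-likelihood test called 0 of the 10, and it called 0 of all 20428 genes (0%, with 0.953 as the lowest adjusted p). Before adjustment, a p under 0.05 was reached by 0 of the 10 as well, beside 685 of all genes (3.35%). The BBP and corn oil values of FPKM overlapped for all 10, while 9.65% of all genes tested had groups that did not overlap. DESeq2 and limma on log2(FPKM + 1) also called 0 of the 10, although before adjustment 1 of them, Chrm2, was under 0.05 in DESeq2 (adjusted p = 1). The log2 fold change was above 0 for 8 of the genes and below 0 for Chrnb2 and Ache, with a median of 0.08 beside 0.01 for all genes tested. Without corn oil library 3, only 5 were above 0 and the median was 0.00.

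Within the spread of these 6 libraries, the fit bounded the size of the difference between groups for most of the 10 genes. For 7 of the 10 genes, and for 50.4% of all genes tested, the 95% interval did not reach 1.5-fold on either side. The exceptions were Chrm2, Chrm5 and Chrna7, which are also the 3 genes with the lowest levels. These intervals are from the fit with all 6 libraries, and the limit was not applied to fits with 1 library left out. In bulk tissue, fewer cells of a type and less RNA per cell cannot be told apart.

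**Figure D2:**
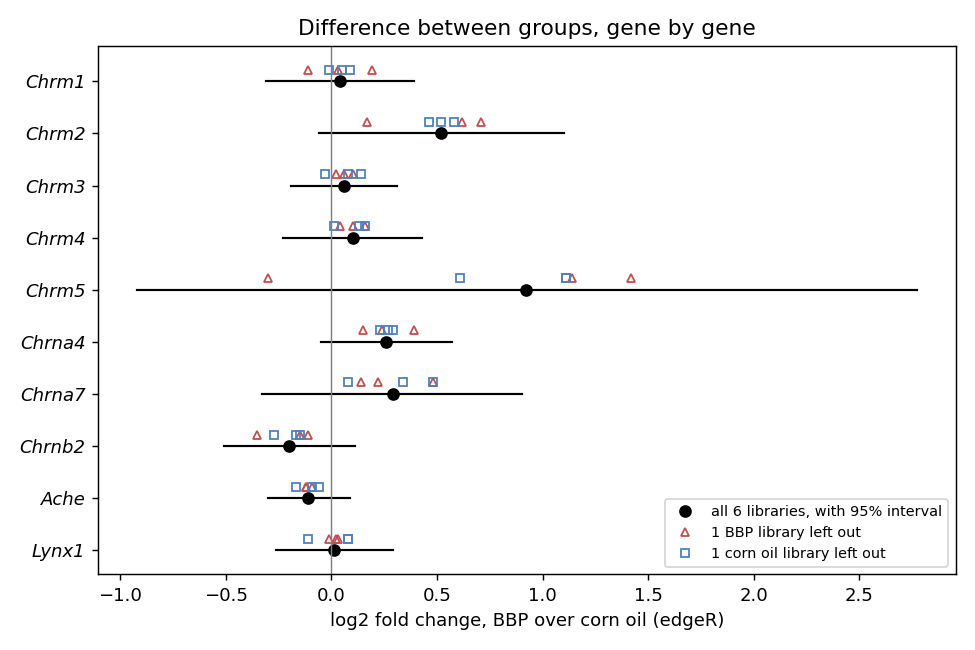
Log2 fold change of each gene, BBP over corn oil (black points), with its 95% interval from edgeR's fit, and the fold change with 1 BBP library (red triangles) or 1 corn oil library (blue squares) left out. All 10 intervals include 0, and Chrm5 turns to -0.30 without BBP library 3.

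Chrm1 (chromosome 19, 8663789 to 8681567, plus strand; all coordinates mm10) encodes the main muscarinic receptor of forebrain pyramidal neurons. It had 23.0, 32.8 and 30.5 FPKM in BBP libraries 1 to 3 and 30.4, 28.8 and 26.3 FPKM in corn oil libraries 1 to 3. BBP library 1 was the lowest of the 6 and BBP library 2 the highest, so the treated group enclosed the controls. The group means were 28.8 ± 5.13 FPKM in BBP and 28.5 ± 2.08 FPKM in corn oil (SD, n = 3 each), and the log2 fold change was 0.04 ± 0.15 (SE; edgeR, adjusted p = 0.985). It was 0.19 ± 0.11 without BBP library 1 and -0.11 ± 0.13 without BBP library 2.

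Chrm3 (chromosome 13, 9875486 to 10360844, minus strand), a second Gq-coupled receptor gene, had 8.07, 7.07 and 7.35 FPKM in BBP and 8.09, 7.43 and 6.36 FPKM in corn oil. Corn oil library 3 was the lowest, and the highest values of the groups were nearly equal. Its interval was among the narrowest of the receptors, with a fold of 1.04 (95% interval 0.879 to 1.24, edgeR). Chrm5 (chromosome 2, 112479171 to 112480769, minus strand), the Gq-coupled receptor gene known from midbrain dopamine neurons, rested on 8, 28 and 101 deposited counts in BBP and on 29, 29 and 13 in corn oil. The lowest and the highest of these values both belonged to BBP, and BBP library 3 alone set the group mean of 0.387 ± 0.408 FPKM, beside 0.205 ± 0.0859 FPKM in corn oil (SD, n = 3 each). The log2 fold change of Chrm5 was 0.92 ± 0.80 with all libraries, -0.30 ± 0.76 without BBP library 3 and 1.42 ± 0.61 without BBP library 1 (edgeR, SE; adjusted p = 0.953, 0.934 and 0.700). The direction of Chrm5 thus depended on single libraries.

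Chrm2 (chromosome 6, 36388084 to 36528414, plus strand) encodes the Gi/o-coupled receptor known as the autoreceptor of cholinergic terminals, and it is also found in interneurons. Chrm2 had the smallest p of the 10 genes. It stood at 2.08, 0.968 and 1.27 FPKM in BBP and at 1.01, 0.929 and 1.10 FPKM in corn oil. BBP library 1 was far above the rest, BBP library 3 slightly above all controls, and BBP library 2 among them. The means were 1.44 ± 0.578 FPKM in BBP and 1.01 ± 0.0879 FPKM in corn oil (SD, n = 3 each), and the log2 fold change was 0.52 ± 0.25 (SE; edgeR, adjusted p = 0.953). Without BBP library 1 it was 0.17 ± 0.17 (SE; edgeR, adjusted p = 0.817), and without BBP library 2 it was 0.71 ± 0.22 (SE; edgeR, adjusted p = 0.981). BBP library 1 is the library with the high striatum and isocortex sums, whose part in the Chrm2 value was not tested. A gene on the opposite strand, 9330158H04Rik, overlaps the start of Chrm2 and had at most 0.0652 FPKM in any library.

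Chrm4 (chromosome 2, 91927249 to 91928688, plus strand), the other Gi/o-coupled receptor gene, is abundant in striatal neurons. It had 7.17, 5.59 and 6.75 FPKM in BBP and 6.66, 6.38 and 5.38 FPKM in corn oil. BBP library 1 was again the highest, but by a small margin over BBP library 3. The fold was 1.07 (95% interval 0.855 to 1.35, edgeR), and without BBP library 1 the log2 fold change was 0.04 ± 0.16 (SE), beside 0.10 ± 0.14 with it.

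Chrm1 supplied most of the summed muscarinic level in every library. Its share was 56.9%, 70.3% and 65.3% in BBP libraries 1 to 3 and 65.5%, 65.7% and 67.0% in corn oil libraries 1 to 3. The summed muscarinic level itself was 40.4, 46.7 and 46.7 FPKM in BBP and 46.4, 43.8 and 39.2 FPKM in corn oil, so the groups overlapped. The ratio of the Gi/o-coupled pair, Chrm2 and Chrm4, to the Gq-coupled Chrm1, Chrm3 and Chrm5 was 0.297, 0.163 and 0.207 in BBP and 0.198, 0.201 and 0.198 in corn oil. The control libraries thus lay within a narrow band. BBP library 3 was just above it, and BBP libraries 1 and 2 lay farther off on opposite sides. BBP library 1 had a Chrm1 to Chrm2 ratio of 11.0, and the remaining libraries had ratios of 23.8 to 33.9.

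**Figure D3:**
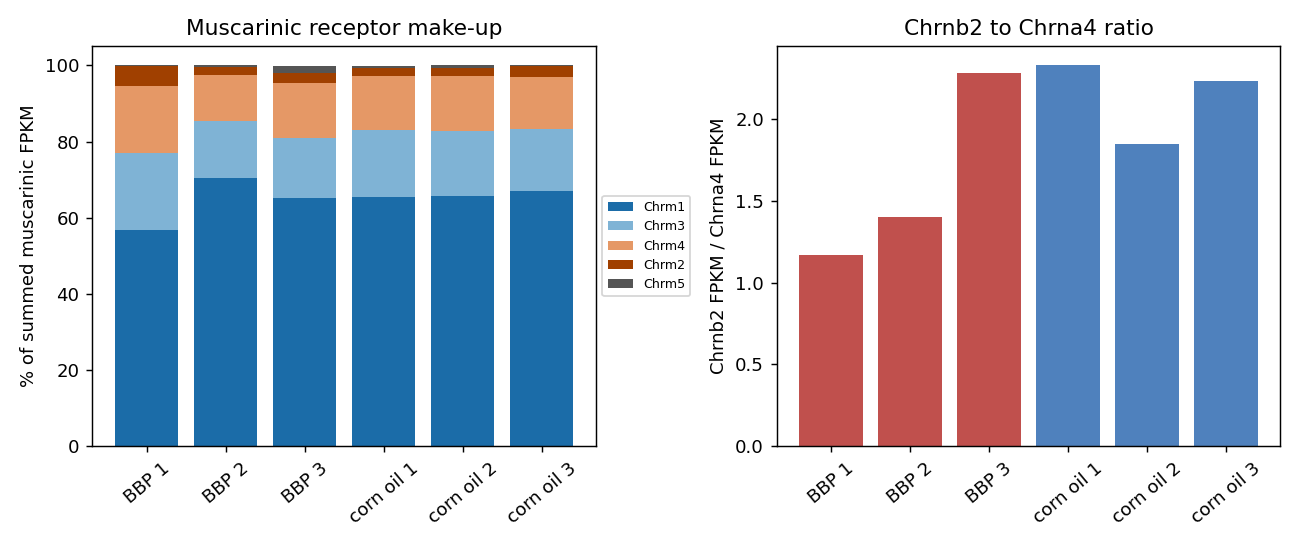
Left, share of each muscarinic receptor gene in the summed muscarinic FPKM of each library, and right, the ratio of Chrnb2 to Chrna4 FPKM. BBP library 1 has the smallest Chrm1 share (56.9%), and BBP libraries 1 and 2 have the lowest Chrnb2 to Chrna4 ratios (1.17 and 1.40).

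Chrna4 and Chrnb2 encode the subunits that assemble into the high-affinity nicotine receptor of the brain. Chrna4 (chromosome 2, 181018380 to 181039225, minus strand) had 5.58, 4.64 and 4.00 FPKM in BBP and 3.82, 4.15 and 4.09 FPKM in corn oil. BBP libraries 1 and 2 were above all controls and BBP library 3 was among them. The BBP mean was 4.74 ± 0.796 FPKM and the corn oil mean 4.02 ± 0.176 FPKM (SD, n = 3 each), with a log2 fold change of 0.26 ± 0.14 (SE; edgeR, adjusted p = 0.953) and of 0.15 ± 0.13 without BBP library 1. Chrnb2 (chromosome 3, 89746195 to 89764608, minus strand) had 6.50, 6.48 and 9.12 FPKM in BBP and 8.89, 7.69 and 9.13 FPKM in corn oil. Here BBP libraries 1 and 2 were below all controls, and BBP library 3 was close to the highest of them. The BBP mean was 7.37 ± 1.52 FPKM and the corn oil mean 8.57 ± 0.773 FPKM (SD, n = 3 each), with a log2 fold change of -0.20 ± 0.13 (SE; edgeR, adjusted p = 0.953).

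The ratio of Chrnb2 to Chrna4 brought these values together. It was 1.17, 1.40 and 2.28 in BBP and 2.33, 1.85 and 2.23 in corn oil. BBP libraries 1 and 2 were below every control, whereas BBP library 3 was above corn oil libraries 2 and 3. BBP libraries 1 and 2 also had the highest sums of 10 oligodendrocyte markers, at 843 and 851 FPKM, beside 584 FPKM in BBP library 3 and 525 to 717 FPKM in corn oil. All 10 of these markers had a positive log2 fold change, beside 52.4% of all genes tested, and none of the 10 was at 0 in all libraries. The mitochondrial share of counts was highest in BBP library 2, at 11.5%, against a range of 7.11% to 8.57% elsewhere. The part of these differences in the ratio was not tested. Without BBP library 3 the log2 fold changes were 0.39 ± 0.11 for Chrna4 and -0.35 ± 0.11 for Chrnb2 (SE; edgeR, adjusted p = 0.624 for each). Without BBP library 1, Chrnb2 was at -0.11 ± 0.13 (SE; edgeR, adjusted p = 0.844). The fits without BBP library 3 and without BBP library 1 put 1530 and 1475 genes at an unadjusted p under 0.05, more than with all libraries. The 3' end of Chrnb2 overlaps Adar on the other strand, an RNA-editing enzyme gene at 18.8 ± 0.568 FPKM in BBP and 17.6 ± 1.42 FPKM in corn oil (SD, n = 3 each). The library kit marks strand, but no source used here gives the strand setting of the counting, and the level of Chrnb2 is uncertain to that extent. Genes that overlap Ache, Chrm3 and Chrna7 had at most 1.52 FPKM in any library.

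The sequences before the starts of Chrm2, Chrna4 and Chrnb2 are shown because these genes had the smallest p of the 10. They are RefSeq sequences of GRCm38.p6, 5′ to 3′ on the gene's strand, and each ends before the most upstream start that RefSeq or the deposited table gives. Capitals mark GC boxes (GGGCGG on either strand), the element bound by Sp1.
Chrm2, chr6:36387834-36388083, plus strand: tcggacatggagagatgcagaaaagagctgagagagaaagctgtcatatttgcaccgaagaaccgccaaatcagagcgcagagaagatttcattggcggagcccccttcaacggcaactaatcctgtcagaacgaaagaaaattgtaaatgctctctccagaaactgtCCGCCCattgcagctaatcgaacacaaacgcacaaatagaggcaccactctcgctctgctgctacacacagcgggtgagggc
Chrna4, chr2:181039226-181039427, minus strand: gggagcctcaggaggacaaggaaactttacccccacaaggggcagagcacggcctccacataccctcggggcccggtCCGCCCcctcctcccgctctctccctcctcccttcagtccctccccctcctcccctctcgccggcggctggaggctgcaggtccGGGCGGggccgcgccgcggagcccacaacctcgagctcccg
Chrnb2, chr3:89764633-89764882, minus strand: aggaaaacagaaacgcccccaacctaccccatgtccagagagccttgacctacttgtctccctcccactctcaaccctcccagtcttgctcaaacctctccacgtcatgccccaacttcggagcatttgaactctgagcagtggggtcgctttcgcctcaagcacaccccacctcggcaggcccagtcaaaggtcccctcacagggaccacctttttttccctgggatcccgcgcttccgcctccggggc
The stretch printed for Chrm2 held 1 GC box, that for Chrna4 held 2, and that for Chrnb2 held 0. Over the 250 bases before the RefSeq start, which could be read for 8 of the 10 genes, 5 had a GC box (Chrm2, Chrm4, Chrna4, Chrna7 and Ache), as did 32.7% of all 32851 promoters of that length. An E-box (CACGTG) was found for Chrna7 and Ache, beside 6.02% of all promoters. A TATA box (TATAAA) and a cyclic AMP response element (TGACGTCA), each on either strand, were found for 0 of the 8, beside 12.4% and 1.55% of all promoters. No motif match overlapped one of another kind in the printed stretches. These matches describe letters and were not tested against the expression values. Chrna4 had the highest GC content of the 8 (74.4%) and Chrm5 the lowest (37.6%), beside a median of 52.4% for all promoters.

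Chrna7 (chromosome 7, 63098692 to 63212569, minus strand) encodes the subunit that can form receptors on its own and binds alpha-bungarotoxin. It had 1.18, 1.82 and 1.82 FPKM in BBP and 1.43, 1.66 and 0.920 FPKM in corn oil. BBP libraries 2 and 3 were the highest of the 6, BBP library 1 was below corn oil libraries 1 and 2, and corn oil library 3 was the lowest. The log2 fold change was 0.29 ± 0.27 (SE; edgeR, adjusted p = 0.953), and 0.08 ± 0.25 without corn oil library 3. It was 0.14 ± 0.30 without BBP library 2, 0.48 ± 0.24 without BBP library 1 and 0.48 ± 0.30 without corn oil library 2 (SE; edgeR, adjusted p = 0.983, 0.712 and 0.999). Counts for Chrna7 ranged from 316 to 605, its coefficient of variation over the 6 libraries was 24.9%, and the 95% interval of its fold was 0.797 to 1.87.

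Ache (chromosome 5, 137287519 to 137294466, plus strand) was the steadiest of the 10 genes, with a coefficient of variation of 7.55% over the 6 libraries. It had 11.2, 10.8 and 11.8 FPKM in BBP and 11.3, 12.6 and 13.1 FPKM in corn oil. Corn oil libraries 2 and 3 were above all BBP libraries, and corn oil library 1 was between BBP libraries 1 and 3. The log2 fold change was -0.11 ± 0.08 (SE; edgeR, adjusted p = 0.953), and the 95% interval of the fold was 0.810 to 1.06. Lynx1 (chromosome 15, 74747852 to 74753046, minus strand) encodes a membrane-anchored relative of snake toxins that binds nicotinic receptors and dampens them. It had 68.8, 61.1 and 67.0 FPKM in BBP and 71.6, 71.9 and 54.2 FPKM in corn oil, with the controls enclosing the treated libraries. Its fold was 1.01 (95% interval 0.833 to 1.22, edgeR, adjusted p = 0.996), and the log2 fold change was -0.11 ± 0.10 (SE) without corn oil library 3.

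No library was consistently high or low across the 10 genes. BBP library 1 was the highest of the 6 for Chrm2, Chrm4 and Chrna4 and the lowest for Chrm1 and Chrm5. Corn oil library 3 was the lowest for Chrm3, Chrm4, Chrna7 and Lynx1 and the highest for Chrnb2 and Ache. BBP library 3 was the highest for Chrm5 only. Relative to the corn oil mean, the median of the 10 genes on the log2 CPM scale was -0.04, 0.05 and 0.07 in BBP libraries 1 to 3 and 0.11, 0.05 and -0.15 in corn oil libraries 1 to 3.

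**Figure D4:**
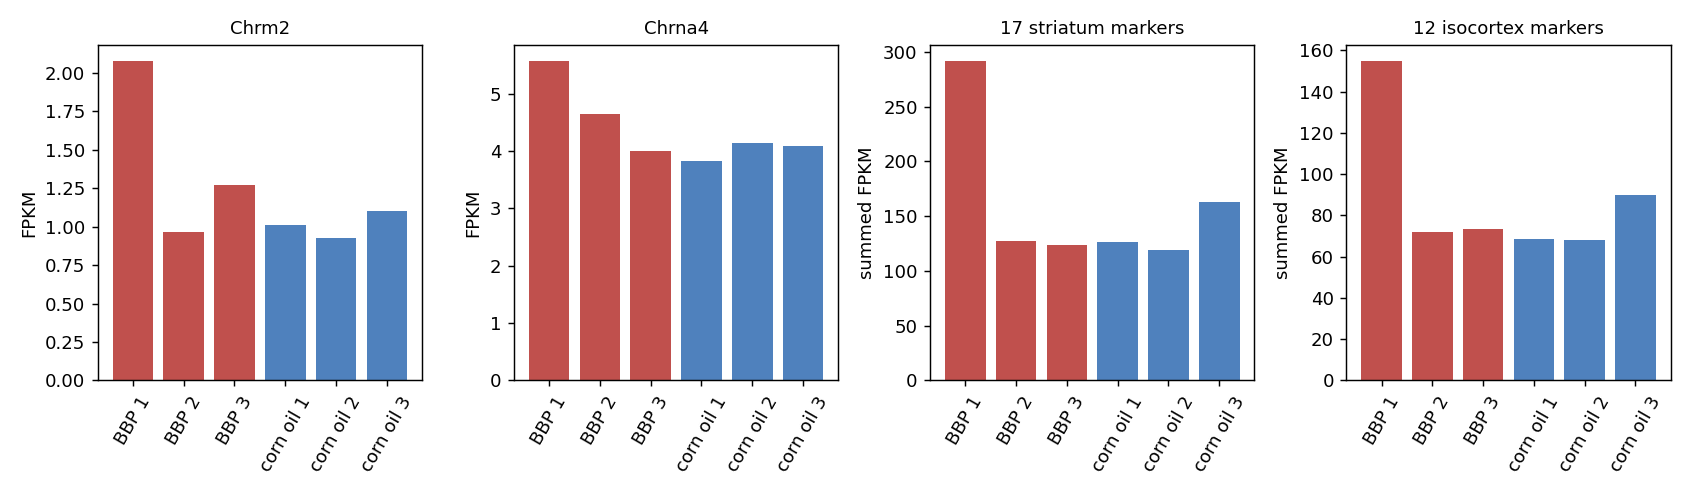
FPKM of Chrm2 and Chrna4 and the summed FPKM of 17 striatum and 12 isocortex markers in each library (BBP red, corn oil blue, 1 bar per library). BBP library 1 is the highest in all 4 panels, at 2.08 and 5.58 FPKM for the receptor genes and 292 and 155 FPKM for the marker sums. Of the genes not shown, Chrm4 was also highest in that library, and Chrm1 and Chrm5 were lowest. A link between the receptor genes and the marker sums was not tested.

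Other genes of the pathway were read from 7 lists with 63 genes, of which 62 were in the table and 54 were tested. In edgeR's test 0 of the 54 had an adjusted p under 0.05. At an unadjusted p under 0.05, 0 were higher in BBP (1.98% of all genes were) and 2 were lower (1.37% of all genes were), both from the lists of nicotinic receptor partners. Ly6h, a Lynx1 relative that limits surface nicotinic receptors, had 35.4, 33.8 and 44.6 FPKM in BBP and 47.8, 45.8 and 54.6 FPKM in corn oil (log2 fold change -0.36 ± 0.11, SE; edgeR, adjusted p = 0.953). Tmem35a, the gene of the nicotinic receptor chaperone NACHO, had 30.3, 25.6 and 31.4 FPKM in BBP and 36.1, 32.3 and 43.0 FPKM in corn oil (-0.33 ± 0.11, SE; edgeR, adjusted p = 0.953). All 3 BBP libraries were below all 3 corn oil libraries for each of these genes. For Ngfr, Gnao1 and Gnai2 all 3 BBP libraries were above, so the groups did not overlap for 5 of the 54 genes (9.26%), near the 9.65% of all genes tested. Over the 54 genes, 39 had a positive and 15 a negative log2 fold change, with a median of 0.10, beside 52.4% positive and a median of 0.01 for all genes. Without BBP library 1, 30 were positive and 24 negative, with a median of 0.04.

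Among the other Lynx1 relatives, 5 of 7 were tested, and Ly6e was the highest, at 52.3, 64.0 and 49.1 FPKM in BBP and 47.6, 49.4 and 45.8 FPKM in corn oil. Lypd1 had 8.05, 10.7 and 12.6 FPKM in BBP and 13.4, 11.8 and 18.1 FPKM in corn oil, with an overlap of BBP library 3 and corn oil library 2 (adjusted p = 0.953 in edgeR). The receptor assembly list held Vsnl1, a calcium sensor gene, at 216 to 294 FPKM in BBP and 232 to 256 FPKM in corn oil, and Ubxn2a at 9.11 to 10.7 FPKM in BBP and 7.85 to 10.1 FPKM in corn oil. Of 12 further nicotinic subunit genes in the table, 8 were tested, 4 with a positive and 4 with a negative log2 fold change. Chrna5, the accessory subunit gene that joins receptors of Chrna4 and Chrnb2, led them at 0.960 to 1.53 FPKM over the 6 libraries. Chrnb1, a muscle-type subunit gene, stood at 0.352 to 0.691 FPKM. Chrna3 and Chrnb4, which are typical of the medial habenula and autonomic ganglia, were highest in corn oil library 2, at 0.657 and 0.400 FPKM. That library also had the highest sum of 10 thalamus and habenula markers, at 23.5 FPKM, beside 16.3 to 18.8 FPKM in BBP and 19.0 and 21.8 FPKM in the other corn oil libraries. Gpr151 and Pou4f1 were picked from these 10 after their values were seen. Gpr151 stood at 3.37 FPKM in corn oil library 2 and at 0.308 to 0.911 FPKM in the others. Pou4f1 stood at 0.327 FPKM there and at 0.0102 to 0.192 FPKM in the others. Prkcd, Zic1 and Lhx9 were also highest in corn oil library 2. Slc17a6, Tac2, Nwd2 and Tcf7l2 were highest in corn oil library 3, and Lef1 in BBP library 2. The part of these markers in the values of Chrna3 and Chrnb4 was not tested.

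Genes of acetylcholine synthesis and loading were near the limit of detection. Chat, which encodes the enzyme that makes acetylcholine, had 0.235, 0 and 0.0201 FPKM in BBP and 0, 0.0684 and 0.0285 FPKM in corn oil. The choline transporter gene Slc5a7 had 0.307, 0.0927 and 0.114 FPKM in BBP and 0.0914, 0.168 and 0.139 FPKM in corn oil. Slc18a3, which encodes the vesicular transporter that loads acetylcholine, had 0.210, 0.0207 and 0.0211 FPKM in BBP and 0.0988, 0.257 and 0.0886 FPKM in corn oil, and its log2 fold change of -0.80 was the only negative one of the 6 markers tested. The summed level of 8 cholinergic neuron markers was 2.38, 0.677 and 0.720 FPKM in BBP and 0.588, 0.918 and 0.814 FPKM in corn oil, so BBP library 1 was again the highest. Ngfr, the low-affinity neurotrophin receptor gene of septal cholinergic neurons, had 0.579, 0.486 and 0.404 FPKM in BBP and 0.342, 0.329 and 0.381 FPKM in corn oil (edgeR, adjusted p = 0.953). Gbx1 ranged from 0 to 0.189 FPKM in BBP and from 0.0109 to 0.0417 FPKM in corn oil.

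Ache supplied 94.9% to 96.6% of the summed esterase level of Ache and Bche in BBP and 96.0% to 97.6% in corn oil. Bche, the butyrylcholinesterase gene, had 0.595, 0.567 and 0.421 FPKM in BBP and 0.464, 0.315 and 0.390 FPKM in corn oil (edgeR, adjusted p = 0.953). Prima1, whose product anchors acetylcholinesterase in neuronal membranes, had 1.33, 1.04 and 0.342 FPKM in BBP and 0.512, 0.864 and 0.507 FPKM in corn oil, so that the BBP libraries held both the highest and the lowest values. Colq, which encodes the collagen tail of the muscle enzyme, had 0.311 FPKM in BBP library 1 and at most 0.0616 FPKM in the others.

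Genes downstream of the muscarinic receptors were positive for 17 of 20, with a median log2 fold change of 0.09. Over all genes tested, 52.4% were positive and the median was 0.01. The count was 14 of 20 without BBP library 1 and also without corn oil library 3. In edgeR's test 0 of the 20 were at an unadjusted p under 0.05, beside 3.35% of all genes. Gnao1, the most abundant Gi/o alpha subunit gene of the list, had 54.3, 74.5 and 55.7 FPKM in BBP and 53.9, 53.2 and 53.6 FPKM in corn oil, a difference set by BBP library 2 (edgeR, adjusted p = 0.953). Gnai1 stood at 43.6 to 59.3 FPKM in BBP and 51.9 to 59.0 FPKM in corn oil, and Gnai2 at 35.8 to 40.7 FPKM in BBP and 31.8 to 34.2 FPKM in corn oil. Kcnq5, a subunit gene of the M current that muscarinic receptors close, had 9.14, 7.89 and 9.37 FPKM in BBP and 8.17, 8.14 and 7.09 FPKM in corn oil (edgeR, adjusted p = 0.953). Rgs4, a brake on G protein signalling, and Plcb4, a phospholipase C gene, were picked after their values were seen. Rgs4 had 103 FPKM in BBP library 1 and 34.0 to 46.4 FPKM in the others, and Plcb4 had 5.94 FPKM there and 2.06 to 2.59 FPKM in the others. Of the 7 genes of choline supply, Acly, which makes cytosolic acetyl-CoA, had 18.7 to 24.3 FPKM in BBP and 22.5 to 23.4 FPKM in corn oil. The choline transporter-like gene Slc44a1 had 9.86 to 10.9 FPKM in BBP and 7.86 to 9.87 FPKM in corn oil. Pcyt1a, of phosphatidylcholine synthesis, had 3.09 to 3.95 FPKM in BBP and 3.08 to 3.33 FPKM in corn oil.

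The 3 genes with the widest range over libraries on the log2 CPM scale were Chrm5 (3.28), Chrm2 (1.15) and Chrna7 (1.08). The genes most like each of them were sought among those with a mean of at least 1 FPKM, by Pearson's r of log2 CPM over the 6 libraries, as a description. For Chrm2 they were Plekhm2 (r = 0.994), Zfp365 (r = 0.993) and Etv6 (r = 0.988). Zfp365 had 78.3 FPKM in BBP library 1, 60.3 FPKM in BBP library 3 and between 51.9 and 58.8 FPKM elsewhere, and its highest libraries came in the same order as those of Chrm2. For Chrna7 they were Cr1l (r = 0.995), Cbfa2t3 (r = 0.995) and the pseudogene Slc2a4rg-ps (r = 0.993). For Chrm5 they were Osbpl6 (r = 0.990), Chd4 (r = 0.989) and Kdm5b (r = 0.989), each of which varied far less than Chrm5 did: Chd4 stood at 17.1 to 20.7 FPKM. With 6 libraries and 13232 or 13233 genes compared, high values are common: 63, 43 and 67 genes had an r above 0.95 with Chrm2, Chrna7 and Chrm5.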

How the data were processed

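Each of the 6 libraries was made from hippocampal poly(A) RNA with a strand-marking (dUTP) kit and molecular identifiers, per the labels' protocols. Named without role or order in the submitters' processing notes are the mm10 build and StringTie 2.1.6, HISAT2 2.2.1, cutadapt 1.9, UMI-tools, edgeR and DESeq2. The deposited table holds estimated counts and FPKM, per the file headers. The deposited counts are whole numbers, and a count of 4 was more frequent than 3 or 5 in all libraries, so that 1 fragment may give about 4 counts. The ratio of count to FPKM was calibrated on 1219 genes with 1 listed transcript. Groups follow the labels, and no library was left out.

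Tests on the rounded counts used edgeR 4.0.16 under R 4.3.3 (filterByExpr, TMM, quasi-likelihood test on treatment alone, adjustment over all 20428 genes). Standard errors were obtained as the size of the log2 fold change divided by the root of F. Alternatives used DESeq2 1.42.0 and limma 3.58.1, on log2(FPKM + 1) or log2(FPKM + 0.1). The log2 CPM values use a prior count of 2. The fit was tested on simulated data, in which only genes above a minimum mean count were changed. Chrm5 lies below that minimum. The values given are from 1 draw, and an earlier draw gave other numbers, most of all at 1.5-fold. At an adjusted p under 0.05 the fit recovered 11 of 50 genes changed 1.5-fold and 34 of 50 changed 2-fold. It recovered 50 of 50 changed 4-fold and made 8 false calls.

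The genes and lists were chosen with earlier results of these data known. Named by rule were all 10 genes, the 2 genes with the highest mean FPKM and the 2 with the smallest p of each pathway list, the 2 highest of the marker list with the most divergent library, and the 3 genes most like each of the 3 most variable members. Promoter sequences are from RefSeq. Figures were drawn with matplotlib 3.10.9.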

Additional observations from a re-analysis of the deposited data

How the results depend on the processing

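No fit brought any of the 10 genes past an adjusted p of 0.05, and the smallest adjusted p of any of them was 0.624. The number of them at an unadjusted p under 0.05 was 0 with all libraries in edgeR, 1 in DESeq2 (Chrm2) and 0 to 2 with 1 library left out: Chrm5 without BBP library 1, Chrm2 without BBP library 2, Chrna4 and Chrnb2 without BBP library 3. The median log2 fold change ranged from 0.00 to 0.15 with 1 library left out, and the number of positive values from 5 (without corn oil library 3) to 8. Over all genes, edgeR's 0 calls became 3 in DESeq2 and 0 to 3 with 1 library left out (3 without BBP library 1, 1 without corn oil library 2). The 685 of 20428 genes at an unadjusted p under 0.05 became 714 in limma on log2(FPKM + 1) over as many genes. In limma for a mean of at least 1 FPKM they became 396 of 13268 genes. With 1 library left out they became 1475 without BBP library 1, 1530 without BBP library 3 and 393 without corn oil library 1. The cause of the changes with 1 library left out was not tested.

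The log2 fold change kept its sign in all 15 alternatives for Ache, Chrm2, Chrm4, Chrna4, Chrna7 and Chrnb2. That of Chrm1, 0.04, was 0.00 but negative in the 3 limma fits and ranged from -0.11 to 0.19 with 1 library left out. The range was 0.17 to 0.71 for Chrm2, 0.01 to 0.16 for Chrm4, 0.15 to 0.39 for Chrna4, 0.08 to 0.48 for Chrna7, -0.35 to -0.11 for Chrnb2, -0.17 to -0.06 for Ache, -0.03 to 0.14 for Chrm3, -0.30 to 1.42 for Chrm5 and -0.11 to 0.08 for Lynx1. Chrm5 was not tested in limma for a mean of at least 1 FPKM or with counts divided by 4, an alternative chosen after seeing the data. Deviations of libraries with the same number correlated at -0.08, 0.08 and -0.10, so no likeness by number was seen. Such values cannot show whether libraries of the same number were handled together, and the labels name no batch. With the replicate number as a block, 0 genes passed and 494 were at an unadjusted p under 0.05, and 0 of the 10 genes were, with a median of 0.09. No call changed. Chrm5 had the fewest counts of the 10, at 8 to 101.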
